A study of Mus musculus with 16 samples.

Results

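The histone deacetylase genes of classes I and II, Hdac1 to Hdac10, were taken by name: every non-control probe that the array design names Hdac1 to Hdac10 was followed. There were 16 such probes of 55681 probes on the array, and 10 gene names of 34650. Hdac1 had 3 probes, Hdac6, Hdac8, Hdac9 and Hdac10 had 2 each, and the remaining 5 genes had 1 each. All 16 carried a RefSeq accession that matched the same gene symbol.

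These enzymes remove acetyl groups from lysines of histones and of other proteins. Class I enzymes (Hdac1, Hdac2, Hdac3 and Hdac8) are mostly nuclear and, apart from Hdac8, work as the catalytic subunits of large co-repressor complexes. Class IIa enzymes (Hdac4, Hdac5, Hdac7 and Hdac9) have little deacetylase activity of their own. They bind MEF2 transcription factors and leave the nucleus when kinases such as CaMK or PKD phosphorylate them and 14-3-3 proteins bind the phosphorylated sites, a switch known in skeletal muscle for its link to fibre type and denervation. Class IIb enzymes (Hdac6 and Hdac10) act mainly in the cytoplasm, Hdac6 on tubulin and cortactin and Hdac10 on acetylated polyamines.

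RNA came from gastrocnemius, a calf muscle, of male C57BL6 mice aged 8 to 16 weeks, of which 3 were wild type (WT) and 3 were Eif6+/- littermates (Het). Eif6 encodes an initiation factor that binds the large ribosomal subunit, and Het mice carry 1 functional copy of it. Each mouse gave total RNA of whole muscle, RNA of transcripts carrying several ribosomes, pooled from the heavy part of a sucrose gradient (polysomes), and RNA of transcripts carrying 1 ribosome (monosomes). The 6 groups held 3 whole-muscle and 3 polysome arrays per genotype, monosome arrays of WT mice 1 and 2 and monosome arrays of Het mice 1 and 3, 16 arrays in all. Values below are quantile-normalized log2 signals, and a difference of 1 is a factor of 2. The level of one probe cannot be set against that of another, because probes bind with different strength. Gastrocnemius holds several cell types, so fewer cells of a type and less RNA per cell cannot be told apart.

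As a check of the labels, Eif6 was lower in Het than in WT in every kind of RNA with no overlap of the groups, with a Het minus WT difference of -0.93 ± 0.25 (SE) in whole muscle, -1.32 ± 0.25 in polysomes and -1.82 ± 0.35 in monosomes, of which only the monosome one passed (limma adjusted p of 0.348, 0.206 and 0.0451). All 14 skeletal muscle markers of a fixed list were well above background on at least 1 array of every group. Brightness, the 75th percentile of the processed signal, ran from 12.7 to 150 scanner units, with the Het whole-muscle arrays (13.3 to 32.8) below the WT ones (42.0 to 150). WT polysome 2 and WT monosome 2, arrays of one mouse, stood apart. WT polysome 2 had a mean correlation of 0.903 with the other arrays of its group. The WT monosome arrays correlated at 0.782, a value that both share and that singles out neither. Upstream and downstream probes were compared over 1171 pairs at least 500 bases apart on one transcript. On WT polysome 2 and WT monosome 2 the upstream probe was brighter, by medians of 0.60 and 0.82. On the other 14 arrays it was dimmer, with medians between -1.35 and -0.79. For the Hdac probes other than Hdac9, genotype differences in polysomes and monosomes are also given without that mouse.

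Of the 16 probes, 4 were not tested, because they were not well above background (a call of the scanner software) on every array of any group. They are the only probe of Hdac2, both probes of Hdac8 and one of the pair of Hdac9. Their sequences are shown since they decide what the arrays can say about these 3 genes. Positions are on mouse build mm9.
Hdac2, chr10:36713455-36713589, plus strand, base 888 of the transcript: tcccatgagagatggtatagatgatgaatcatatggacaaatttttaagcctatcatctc
Hdac8, chrX:99503070-99597969, minus strand, base 1043: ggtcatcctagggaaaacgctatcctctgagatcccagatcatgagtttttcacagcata
Hdac8, chrX:99700320-99700379, minus strand, base 108: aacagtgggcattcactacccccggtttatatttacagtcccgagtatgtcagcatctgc
Hdac9 (variant 1), chr12:34792084-34792143, minus strand, base 3142: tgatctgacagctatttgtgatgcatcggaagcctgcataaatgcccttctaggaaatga
For Hdac2 and the first probe of Hdac8 the genomic span is longer than the 60 bases of a probe.

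Hdac2, the partner of Hdac1 in the Sin3, NuRD and CoREST complexes, had 10 spots per array, of which 8 to 10 were usable. The probe was well above background on 2 of 16 arrays, WT whole muscle 1 and Het polysome 2, with 7 of 9 usable spots on each. Its signal was 2.91, 2.95 and 2.51 in WT whole muscle, 2.38, 1.72 and 2.64 in Het whole muscle, 2.31, 3.68 and 2.68 in WT polysomes and 2.89, 3.31 and 3.09 in Het polysomes. Genotypes overlapped in both kinds of RNA, the Het polysome values lay above the Het whole-muscle values, and at this brightness no level can be given. Hdac8, a deacetylase of the cohesin subunit Smc3, was not well above background on any array with either probe. The Hdac9 probe of variant 1 read between 1.57 and 2.38 on 15 arrays and 6.18 on Het whole muscle 2, the only array where it was well above background, at a processed signal of 24.4 scanner units.

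The remaining 12 probes, which cover 8 genes, were among the 20251 probes tested. Of these 12, 8 reached that call on each of the 16 arrays. The probe of Hdac3 and the Hdac1 probe at base 1885 missed this on WT monosome 2 alone, and the Hdac1 probe at base 1543 on 2 arrays. The tested probe of Hdac9 reached it on 8 arrays and on neither monosome array of either genotype. It entered the test through Het polysomes alone, so its signals are described and it is left out of the counts and medians below, which cover 11 probes of 7 genes. The plot of signals by array shows the probe with the highest mean signal for each gene.

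**Figure D1:**
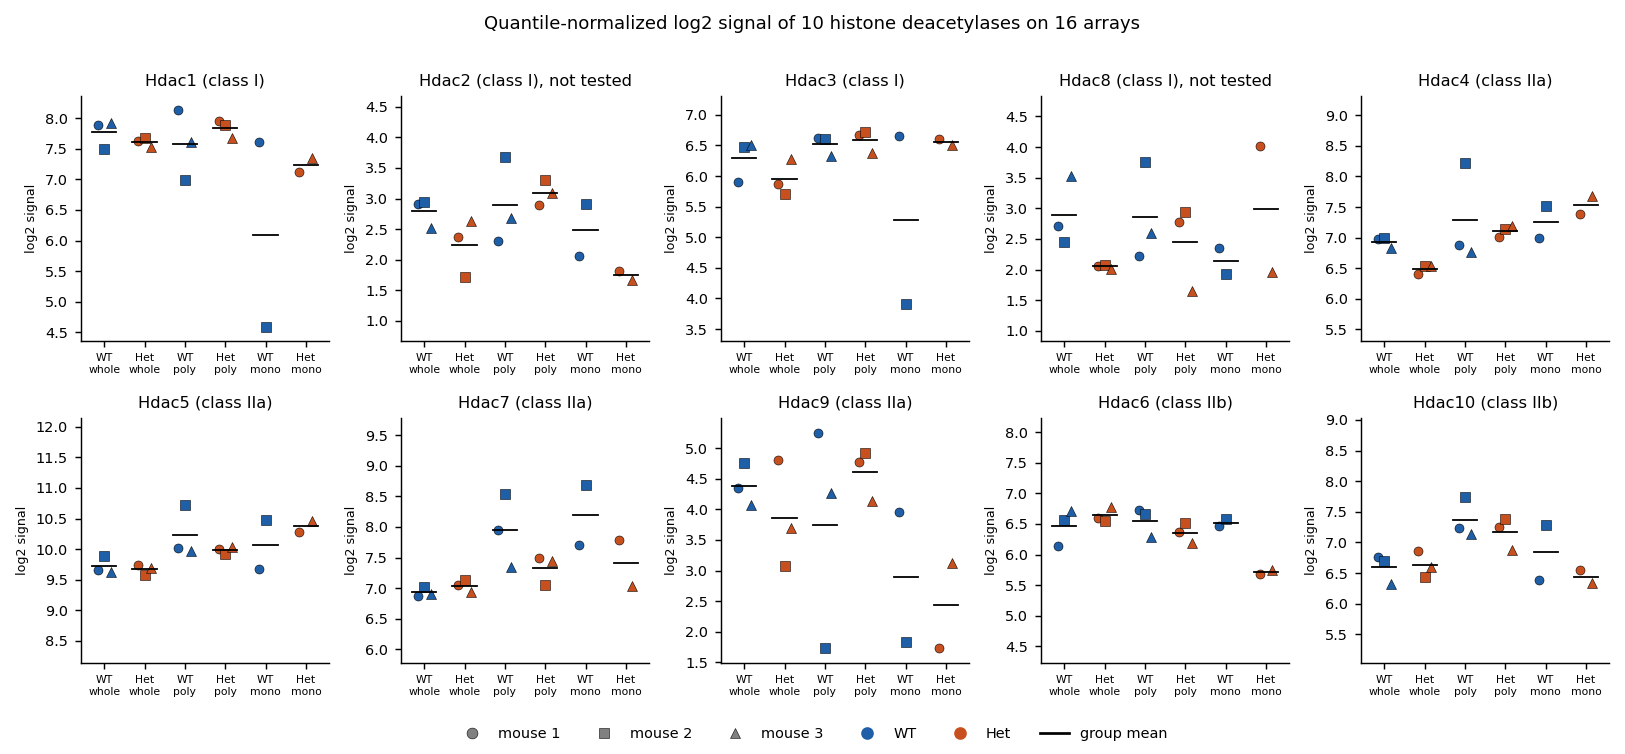
Quantile-normalized log2 signal (vertical axis, each panel spanning 4 log2 units) of one probe per gene in the 6 groups, with a symbol per mouse and a bar at the group mean. The square symbols of WT polysome 2 and WT monosome 2 lie apart from their groups for Hdac1 and Hdac3 (monosome 4.59 and 3.91), Hdac4 (polysome 8.23) and Hdac9 (polysome 1.74, not well above background).

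Among class I enzymes, Hdac1 was read by 3 probes in the last stretch of its transcript, at bases 1543, 1732 and 1885 (chr4:129193374-129193775, minus strand). At base 1885 the signal was 7.89, 7.50 and 7.91 in WT whole muscle, 7.62, 7.67 and 7.53 in Het whole muscle, 8.14, 6.98 and 7.62 in WT polysomes and 7.95, 7.89 and 7.68 in Het polysomes. Genotypes overlapped in both kinds of RNA, and all 3 Het polysome values lay above all 3 Het whole-muscle values. In monosomes it was 7.60 and 4.59 in WT and 7.12 and 7.34 in Het, so that a single WT array lay about 3 log2 units below its partner. The Het minus WT difference was -0.16 ± 0.28 (SE) in whole muscle, 0.26 ± 0.28 in polysomes and 1.13 ± 0.68 in monosomes, with limma adjusted p of 0.964, 0.632 and 0.240. Without WT mouse 2 the polysome difference was -0.04 and the monosome difference -0.37. Over all alternatives the polysome difference ran from -0.04 to 0.54 and the whole-muscle difference from -0.315 to 0.21.

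The 3 Hdac1 probes differed in their monosome result. The probe at base 1543 gave -0.66 ± 0.32, the one at base 1732 gave -0.04 ± 0.39 and the one at base 1885 gave 1.13 ± 0.68. Leaving WT mouse 2 out, the first was -0.92 and the second -0.50, and in polysomes, where they had been -0.11 and 0.12, they were 0.02 and -0.08. On 14 of the 16 arrays the probe at base 1543 read between 1.88 and 2.89 below the one at base 1885. On WT polysome 2 it read 1.20 below, and on WT monosome 2 it read 0.61 above. These are the 2 arrays on which the median over the 1171 probe pairs put the upstream probe above the downstream one. Over the 16 arrays the probes at bases 1732 and 1885 had a Pearson correlation of 0.785, and those at bases 1543 and 1885 one of 0.093, values given as a description because the probes share arrays and brightness.

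**Figure D2:**
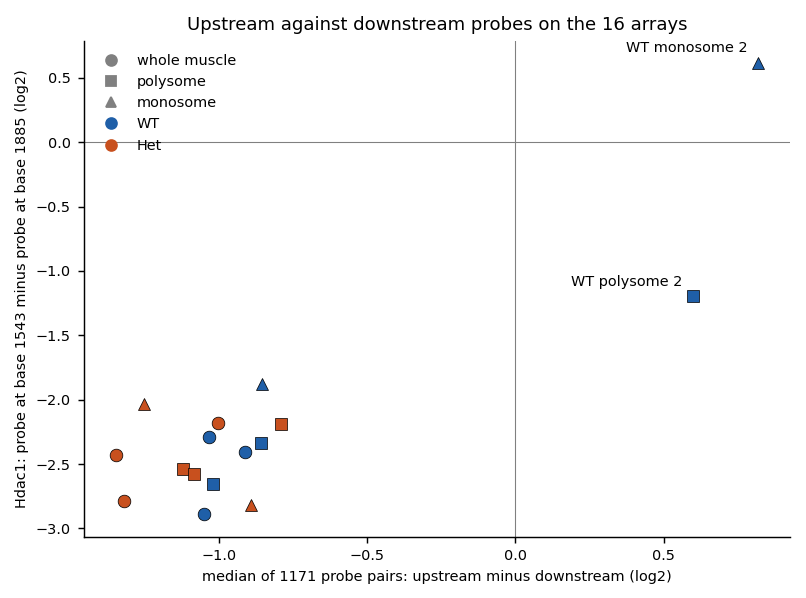
Each point is an array. The horizontal axis gives the median upstream minus downstream log2 signal over 1171 probe pairs of one transcript, and the vertical axis gives the same for Hdac1 (probe at base 1543 minus probe at base 1885). WT polysome 2 (0.60, -1.20) and WT monosome 2 (0.82, 0.61) lie apart from the other 14 arrays.

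Hdac3 is the catalytic subunit of the NCoR and SMRT complexes. Its probe (chr18:38096655-38096714, minus strand) read 5.90, 6.47 and 6.51 in WT whole muscle, 5.87, 5.70 and 6.29 in Het whole muscle, 6.62, 6.61 and 6.32 in WT polysomes and 6.67, 6.71 and 6.38 in Het polysomes. In monosomes it was 6.65 and 3.91 in WT and 6.60 and 6.51 in Het. WT monosome 2 was again the only array far from the rest. The genotype difference was -0.34 ± 0.24 in whole muscle (adjusted p = 0.764), 0.07 ± 0.24 in polysomes (0.894) and 1.27 ± 0.62 in monosomes (0.165). Without WT monosome 2 the monosome difference of Hdac3 turned to -0.10, and with it as the only WT array it was 2.65. For Hdac1 at base 1885 these values were -0.37 and 2.64, so that both monosome differences rest on that array.

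Among class IIa enzymes, Hdac4 and Hdac5 are known as repressors of MEF2 targets in muscle fibres. The Hdac4 probe (chr1:93829554-93829613, minus strand) read 6.97, 6.99 and 6.84 in WT whole muscle and 6.41, 6.53 and 6.53 in Het whole muscle. All 3 Het values lay below all 3 WT values, a difference of -0.44 ± 0.33 with adjusted p = 0.779. All Het whole-muscle arrays were dimmer than all WT ones, and with array brightness as a term the difference was -0.98 (adjusted p = 0.917). It was the only one of the 11 probes whose genotypes did not overlap in whole muscle, where 13.6% of all tested probes did not overlap. The exact permutation p was 0.1, the smallest that 3 against 3 allows. In polysomes Hdac4 read 6.89, 8.23 and 6.76 in WT and 7.01, 7.14 and 7.19 in Het, with WT polysome 2 above all others, and in monosomes 6.99 and 7.52 in WT and 7.39 and 7.69 in Het. The polysome difference of -0.18 ± 0.33 turned to 0.29 without WT mouse 2.

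The Hdac5 probe (chr11:102057076-102057135, minus strand) read 9.66, 9.89 and 9.63 in WT whole muscle, 9.75, 9.57 and 9.69 in Het whole muscle, 10.01, 10.71 and 9.96 in WT polysomes and between 9.92 and 10.03 in Het polysomes. The polysome values of both genotypes lay above the whole-muscle values of both. The genotype difference was -0.06 ± 0.23 in whole muscle, -0.25 ± 0.23 in polysomes and 0.30 ± 0.33 in monosomes (adjusted p of 0.989, 0.579 and 0.515). The polysome difference was -0.01 and the monosome difference 0.70 without WT mouse 2, and the monosome difference was -0.11 without WT mouse 1.

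Hdac7 is a MEF2 co-repressor best known from endothelium and thymocytes. Its probe (chr15:97623208-97623267, minus strand) read 6.88, 7.02 and 6.90 in WT whole muscle and 7.06, 7.13 and 6.94 in Het whole muscle. In polysomes it was 7.95, 8.53 and 7.35 in WT and 7.49, 7.05 and 7.44 in Het, and in monosomes 7.71 and 8.68 in WT and 7.79 and 7.03 in Het. The WT polysome values lay above both whole-muscle groups, whereas the lowest Het polysome value lay within the Het whole-muscle group. The polysome difference of -0.62 ± 0.28 was the only one of the 11 with an unadjusted p under 0.05 (0.0483), which 14.9% of all probes had, and its adjusted p was 0.333. It was -0.32 without WT polysome 2 and -0.91 without WT polysome 3. The unadjusted p was not under 0.05 with 75th percentile scaling, with a term for slide or array brightness, with a replicate block or with the methods' t-test.

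Hdac9 is made in a long form with a deacetylase domain and in shorter forms that end before it. The tested probe belongs to transcript variant 2 (chr12:35056405-35056464, minus strand) and lies upstream in the gene of the variant 1 probe shown above. It read 4.34, 4.76 and 4.06 in WT whole muscle, 4.81, 3.08 and 3.70 in Het whole muscle, 5.25, 1.74 and 4.27 in WT polysomes and 4.78, 4.92 and 4.13 in Het polysomes. Only the Het polysome group was well above background on all its arrays. WT polysome 2 and Het whole muscle 2 and 3 were below the lowest signal well above background on those arrays (3.81, 4.64 and 4.11), so no genotype difference is given. In monosomes Hdac9 was not well above background on any array, so the level has only a bound there.

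Among class IIb enzymes, Hdac6 carries a pair of deacetylase domains and a ubiquitin-binding zinc finger. Its probes at bases 4069 and 4081 share 48 bases (chrX:7507249-7507320, minus strand) and are therefore not independent readings. At base 4069 the signal was 6.15, 6.57 and 6.71 in WT whole muscle, 6.60, 6.55 and 6.77 in Het whole muscle, 6.73, 6.65 and 6.28 in WT polysomes and 6.38, 6.51 and 6.19 in Het polysomes. Genotypes overlapped in both kinds of RNA, and all 3 Het polysome values lay below all 3 Het whole-muscle values. In monosomes it was 6.46 and 6.58 in WT and 5.69 and 5.75 in Het. The Het monosome group was the lowest of the 6 and did not overlap with the next one, Het polysomes, with either probe.

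Hdac10 had probes at bases 2172 and 2249 (chr15:88954002-88954061 and chr15:88953840-88953899, minus strand). At base 2172 it read 6.50, 6.28 and 5.81 in WT whole muscle, 6.25, 6.16 and 5.89 in Het whole muscle, 6.83, 7.34 and 6.96 in WT polysomes and 6.86, 6.91 and 6.70 in Het polysomes. All 6 polysome values lay above all 6 whole-muscle values. In monosomes it was 6.33 and 7.17 in WT and 5.69 and 5.92 in Het. At base 2249 the polysome values of both genotypes (6.87 to 7.74) again lay above the whole-muscle values (6.32 to 6.86). The correlation between the probes over the 16 arrays was 0.909.

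The first comparison asked whether Eif6 haploinsufficiency changes the amount of these transcripts in muscle. In whole muscle none of these 11 probes passed an adjusted p under 0.05, where 0.00988% of all tested probes did, and none had an unadjusted p under 0.05, against 8.65% of all. The differences ran from -0.44 (Hdac4) to 0.19 (Hdac6), and 4 of 11 were above 0. The study's threshold, as named here, is its rule for polysomal mRNA, an absolute log2 difference above 1 with an unadjusted p under 0.05. It was applied here to limma p-values of the genotype comparisons. The study called its muscle arrays by significance analysis of microarrays with a cutoff on the false discovery rate. In whole muscle 0 of 11 probes reached the rule for polysomal mRNA, against 5.64% of all probes. The median difference was -0.10 for the 11 probes and -0.03 for all. With array brightness as a term the difference turned from -0.16 to 0.21 for Hdac1 at base 1885, from 0.17 to -0.10 for Hdac6 at base 4069 and from 0.11 to -0.38 for Hdac7, and none was called. Immune markers had a median Het minus WT difference of -0.85 in whole muscle, with 1 of 10 above 0 and 0 called, endothelial markers one of -0.33 and skeletal muscle markers one of -0.06. The other medians were -0.34 for fibroblast, -0.33 for satellite cell, -0.03 for Schwann cell, -0.02 for adipocyte and 0.11 for blood markers, with none called.

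In polysomes 0 of 11 probes were called at an adjusted p under 0.05, where 0% of all probes were, and 0 of 11 reached the study's threshold, against 5.42%. The adjusted p ran from 0.333 (Hdac7) to 0.894 (Hdac3). No probe had genotypes that did not overlap, which held for 21.7% of all probes. The median difference was -0.19 for the 11 probes and 0.04 for all, and both medians include WT mouse 2. Without WT mouse 2 the differences of the other genes were 0.12 for Hdac3, -0.14 and -0.31 for Hdac6 at bases 4069 and 4081, and -0.07 and -0.02 for Hdac10 at bases 2172 and 2249. In the same arrays the median was -0.73 for immune markers, with 0 of 10 above 0, -0.94 for blood markers, with 0 of 4 above 0, -0.17 for endothelial and 0.37 for skeletal muscle markers, with none called. The other medians were -0.38 for fibroblast, -0.29 for adipocyte, -0.05 for satellite cell and -0.0045 for Schwann cell markers, also with none called. The part of these cell types in the whole-muscle and polysome differences was not tested.

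Loading, the difference between a mouse's polysome and whole-muscle values on the log2 scale, asks whether a transcript's signal in polysomes, relative to other transcripts, differs between genotypes. Because all arrays were normalized to one distribution, it does not measure the share of a transcript that sits on polysomes. For Hdac7 it was 1.07, 1.51 and 0.45 in the WT mice and 0.43, -0.08 and 0.50 in the Het mice. The lowest WT value lay within the Het range, and the difference was -0.73 ± 0.37 with adjusted p = 0.374, the lowest of the 11, and -0.48 without WT mouse 2. With array brightness as a term the Hdac7 difference was 0.23. The Hdac1 probe at base 1732 was the only one without overlap, with 0.07, -0.19 and -0.05 in WT and 0.42, 0.11 and 0.68 in Het (difference 0.46 ± 0.30, adjusted p = 0.458), and 25.3% of all probes had no overlap. None of the 11 was called at an adjusted p under 0.05, where 0% of all probes were, none had an unadjusted p under 0.05, against 17%, and none reached the study's threshold, against 13.9%.

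**Figure D3:**
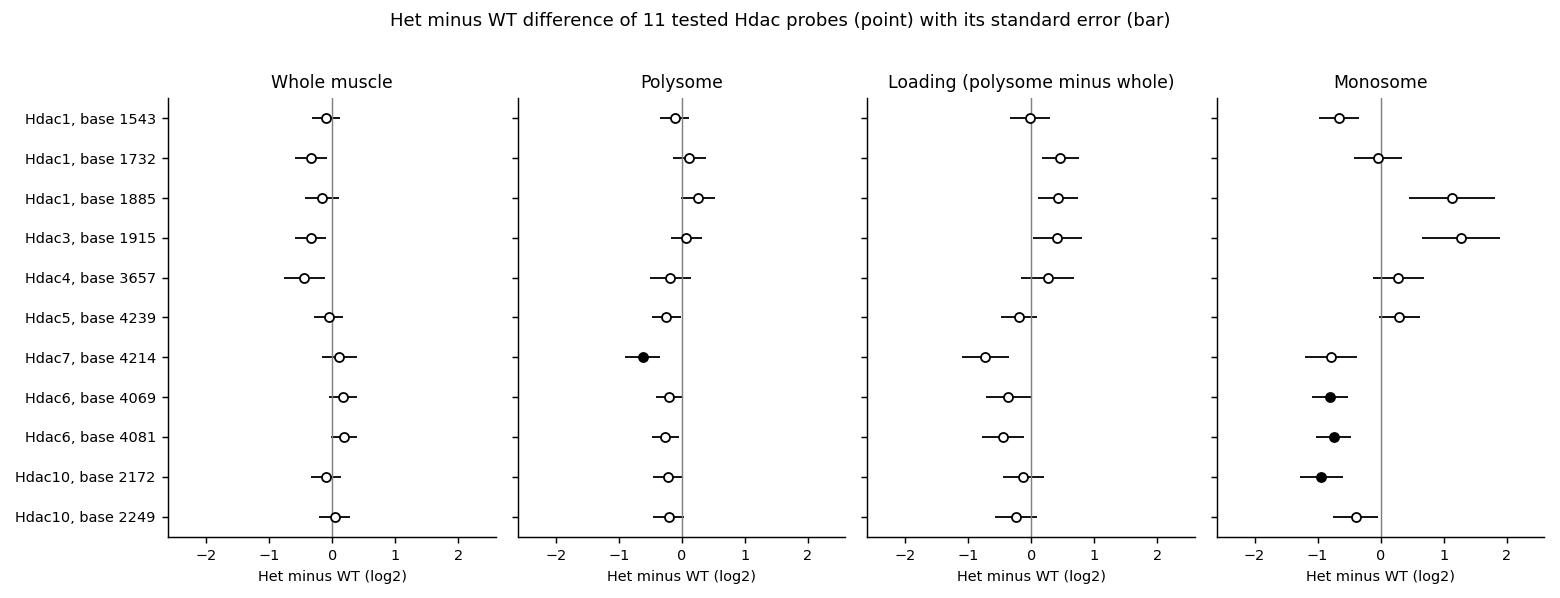
Het minus WT log2 difference (point) with its standard error (bar) for the tested probes other than Hdac9, named by gene and first base in the transcript, in whole muscle, polysomes, loading and monosomes. Filled points have an unadjusted p under 0.05: Hdac7 in polysomes, and both Hdac6 probes and Hdac10 at base 2172 in monosomes.

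In monosomes, with 2 arrays per genotype, none of the 11 probes was called at an adjusted p under 0.05, where 0.499% of all probes were. An unadjusted p under 0.05 was reached by 3 probes, against 33% of all probes, and all 3 were lower in Het: Hdac6 at base 4069 with a difference of -0.80 ± 0.28 (adjusted p = 0.104), Hdac6 at base 4081 with -0.75 ± 0.28 (0.111) and Hdac10 at base 2172 with -0.94 ± 0.34 (0.108). The other Hdac10 probe gave -0.40 ± 0.36. Without WT mouse 2 the differences were -0.52 for Hdac10 at base 2172, 0.06 for its other probe, -0.30 for Hdac7 in place of -0.79, and 0.55 for Hdac4 in place of 0.28. The Hdac6 differences were -0.74 at base 4069 and -0.59 at base 4081 without that mouse, and the first was -0.77 within slide 1 and -0.83 within slide 2, with 1 array per genotype on each. Genotypes did not overlap for 4 probes, those 3 and Hdac1 at base 1543, where 50.4% of all probes did not. At the study's threshold there were 0 of 11, against 28.6%. In the same arrays the 10 tested immune markers had a median Het minus WT difference of -1.20 with 0 of 10 called, and their summed signal was 6016 to 7081 in WT and 2711 to 3892 in Het, with Cd79a, Lyz2 and Ptprc not well above background in Het and Cd79a not in WT either. The median was -1.16 for 4 blood markers and -0.57 for 10 endothelial markers, between -0.46 and -0.12 for fibroblast, adipocyte, Schwann and satellite cell markers and 0.21 for 14 skeletal muscle markers, with none called. The part of such cells in the Hdac differences was not tested.

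The polysome fraction was then set against whole muscle of the same mouse. In WT mice 2 of 11 probes were called at an adjusted p under 0.05, where 20.4% of all probes were, and 4 had an unadjusted p under 0.05, against 37.5%. Hdac7 was higher in polysomes by 1.07, 1.51 and 0.45 in the 3 mice (mean 1.01 ± 0.27 SE, adjusted p = 0.0374). Hdac10 at base 2172 was higher by 0.33, 1.06 and 1.15 (mean 0.85 ± 0.23, adjusted p = 0.0435), and its second probe by 0.47, 1.04 and 0.82 (0.78 ± 0.23, adjusted p = 0.0545). Hdac5 was higher by 0.36, 0.82 and 0.34 (0.50 ± 0.21, adjusted p = 0.12). All 3 mice lay on one side of 0 for 5 of 11 probes, against 53.1% of all probes. Both calls were close to the threshold. With any single mouse of either genotype left out Hdac7 was no longer called (adjusted p from 0.051 to 0.107), and Hdac10 at base 2172 was called only without WT mouse 1 (0.0451, otherwise 0.0689 to 0.166). The values without WT mouse 2 were 0.76 for Hdac7 and 0.74 for Hdac10. Neither was called with slide as a term, with array brightness as a term, with no filter or with the methods' t-test. No mouse had its whole-muscle and polysome arrays on the same slide. Among arrays of one slide Hdac7 was higher by 1.34 on slide 1 and 0.41 on slide 2, and Hdac10 at base 2172 by 1.27 and 0.57.

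In Het mice 0 of 11 probes were called by limma, where 7.34% of all were, and 1 had an unadjusted p under 0.05, against 28.8%. The Het polysome arrays (brightness 62.7 to 106) were all brighter than the Het whole-muscle arrays (13.3 to 32.8). With array brightness as a term 0 of all 20251 probes were called in place of 1486, which covers the Het calls of markers and partner lists given below. Hdac10 at base 2172 was higher in polysomes by 0.61, 0.75 and 0.81 in the 3 mice (mean 0.72 ± 0.23, adjusted p = 0.0988) and passed, at 0.0477, when only probes well above background on every array were tested. Hdac4 was higher by 0.60, 0.60 and 0.65 (0.62 ± 0.30, adjusted p = 0.216), while the WT mice, which share the error of the fit, lay at -0.09, 1.24 and -0.07. Without WT mouse 2 its adjusted p was 0.0489. All 3 Het mice lay on one side of 0 for 10 of 11 probes, against 61% of all probes. Both Hdac6 probes were the ones below 0, at -0.22, -0.04 and -0.58 for base 4069. The loading test above is the test of the difference between genotypes, and it was passed by none of these genes.

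**Figure D4:**
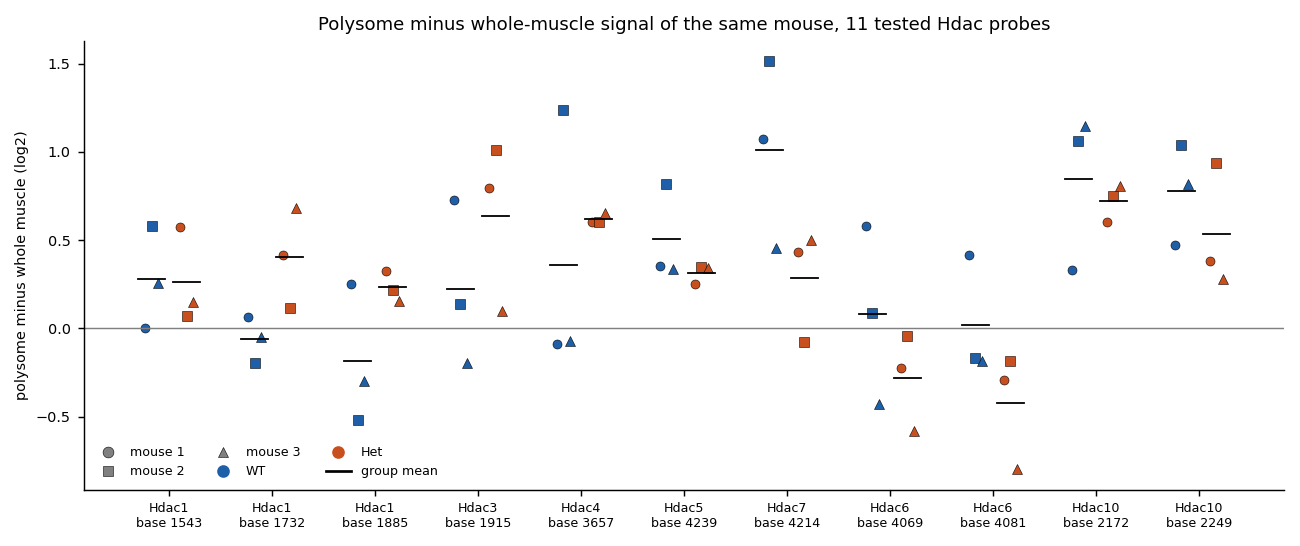
Polysome minus whole-muscle log2 signal of each mouse (symbol) with the mean of 3 mice (bar) for the tested probes other than Hdac9, WT in blue and Het in orange. All 6 mice lie above 0 for Hdac5 (0.25 to 0.82), both Hdac10 probes (0.28 to 1.15) and Hdac1 at base 1543, where 1 WT mouse is close to 0. Within one genotype, 53.1% (WT) and 61% (Het) of all probes had all mice on one side of 0.

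Cell type markers moved between whole muscle and polysomes too. In WT mice 3 of 6 adipocyte markers, 3 of 6 fibroblast markers, 2 of 10 immune markers, 1 of 4 blood markers and 1 of 10 endothelial markers (Cldn5, 1.06, adjusted p = 0.0361) were higher in polysomes, where 10% of all probes were. Of 14 skeletal muscle markers 4 were lower, where 10.3% of all probes were, and no Schwann or satellite cell marker was called. No endothelial or blood marker was called without WT mouse 2, 2 of 6 adipocyte and 2 of 6 fibroblast markers were, and both immune markers were lost while Lyz2 was called lower (-1.99, 0.0397). In Het mice 2 of 10 endothelial markers (Tie1, 2.14, adjusted p = 0.0339, and Tek, 1.72, 0.0447), 2 of 6 adipocyte and 1 of 10 immune markers were higher in polysomes, where 3.34% of all probes were, and 4 of 10 endothelial markers were without WT mouse 2. The summed signal of the endothelial markers was 3865 to 5062 in WT whole muscle and 4261 to 11546 in WT polysomes, with all of its markers above background on some array of both. The part of these cell types in the Hdac7 and Hdac10 differences was not tested.

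Polysomes were also set against monosomes over both genotypes, with 6 arrays against 4. The fit took these arrays as independent, although 4 mice gave both kinds, and a fit with a replicate block is given at the end. In all, 2 of 11 probes were called, where 26% of all probes were, and 4 had an unadjusted p under 0.05, against 42.7%. Hdac1 at base 1732 was higher in polysomes by 0.91 ± 0.25 (adjusted p = 0.0189), and in the 4 mice with both arrays by 0.80 and 0.88 in WT and 1.43 and 0.75 in Het. Hdac10 at base 2172 was higher by 0.66 ± 0.22 (adjusted p = 0.0449), by 0.50 and 0.17 in WT and 1.17 and 0.78 in Het mice. The second Hdac10 probe gave 0.63 ± 0.23 (0.0583) and was called with a replicate block, whose values are given at the end. The values of Hdac4, Hdac5 and Hdac7 were -0.19 ± 0.27, -0.12 ± 0.21 and -0.17 ± 0.27, each within its standard error of 0 (adjusted p of 0.587, 0.69 and 0.646). For none of the 11 were the polysome and monosome arrays free of overlap, which held for 11.9% of all probes. Without WT mouse 2, Hdac1 at base 1732 (0.78, adjusted p = 0.0156) and both Hdac10 probes (0.79 and 0.77, 0.00685 and 0.00805) were called. Without Het mouse 1, or without Het mouse 3, no probe was called. Without WT mouse 1 the called probes were Hdac1 at bases 1732 and 1885 and Hdac3, and without WT mouse 3 or Het mouse 2 Hdac1 at base 1732 alone. Cell type markers were called higher in polysomes than in monosomes for 4 of 6 adipocyte, 5 of 10 endothelial, 3 of 14 skeletal muscle, 1 of 6 fibroblast, 1 of 5 Schwann cell, 1 of 4 blood and 1 of 10 immune markers, where 16.9% of all probes were, and 1 immune marker was lower. Their medians were 1.44 for adipocytes, 0.77 for endothelium and 0.63 for skeletal muscle, against 0.20 for all probes. Without WT mouse 2 the skeletal muscle count was 9 of 14. The part of these cell types in the Hdac differences, and in those of the partner lists below, was not tested.

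**Figure D5:**
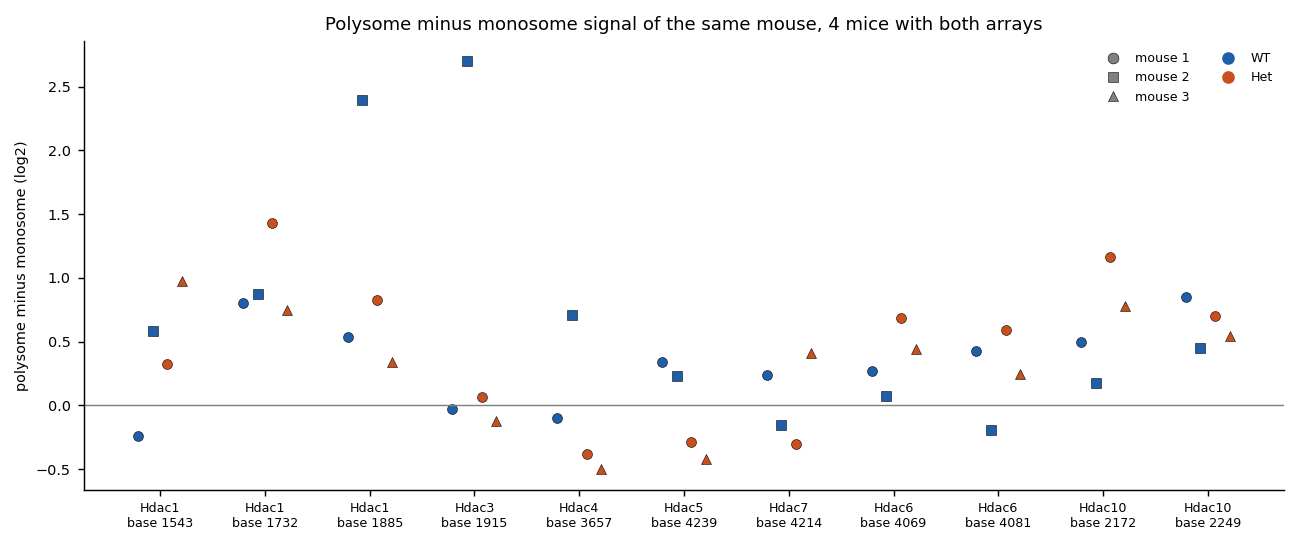
Polysome minus monosome log2 signal of the 4 mice with both arrays, for the tested probes other than Hdac9. All 4 mice lie above 0 for Hdac1 at bases 1732 and 1885, Hdac6 at base 4069 and both Hdac10 probes, and WT mouse 2 lies at 2.39 for Hdac1 at base 1885 and 2.70 for Hdac3. The share of all probes with these mice on one side of 0 was not counted.

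Genes that work with these enzymes were read from 5 lists, 1 probe per gene. A setting chosen after the data were seen left out WT mouse 2, and each list's count of calls under it is given below. No member of any list was called between genotypes in whole muscle, polysomes, loading or monosomes. Of 34 tested co-repressor subunits of class I enzymes, 3 had an unadjusted p under 0.05 in whole muscle, where 8.65% of all probes had, and 5 in polysomes, where 14.9% had, so that the counts are near those shares. The largest whole-muscle differences without overlap were those of Sap30, a Sin3 subunit (-1.62 ± 0.65, adjusted p = 0.546), and of Tbl1xr1 (-1.55 ± 0.70, 0.577) and Chd3 (-0.73 ± 0.29, 0.546), subunits of the NCoR and NuRD complexes. The median over the list was -0.16, against -0.03 for all probes.

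In WT polysomes against whole muscle, 4 of 34 co-repressor subunits were higher and 1 was lower, where 10% and 10.3% of all probes were. Those higher were Tbl1x (1.14, adjusted p = 0.0209), Rcor1 (0.96, 0.0419), Mta2 (0.90, 0.0281) and Chd3 (0.76, 0.0453), and Mbd2, a methyl-CpG binding protein of NuRD, was lower (-1.41, 0.00998). The list's median was 0.33, against 0.05 for all probes. In polysomes against monosomes, where 16.9% of all probes were higher and 9.07% lower, 9 were higher, among them Sap30 (2.26, 0.0075) and Sin3b (1.08, 0.00305), and 3 were lower, Suds3 (-1.12, 0.00619), Mta1 (-0.79, 0.037) and Mbd3 (-0.78, 0.0115). The subunits of one complex thus took both directions. In Het polysomes against whole muscle 0 of 34 were called. Leaving out WT mouse 2, Rcor1 was no longer called in WT polysomes (0.68, 0.105) and 5 were called, 4 of them in common. In Het polysomes 3 were then called, and against monosomes 14 in place of 12, with 10 in common.

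The 27 tested signal partners of class IIa enzymes hold the MEF2 factors, their kinases and the 14-3-3 proteins. The calcium-dependent kinase Camk4 was higher in WT polysomes than in whole muscle (1.89, adjusted p = 0.0386) and Mef2c was lower (-1.65, 0.0378). These were the 2 calls among 27 genes, where 10% of all probes were higher and 10.3% lower, and without WT mouse 2 Camk4 was no longer called (1.68, 0.123). In polysomes against monosomes 5 of 27 partners were higher, where 16.9% of all probes were, and none was lower, among them the 14-3-3 genes Ywhab (1.34, 0.0166), Ywhag (1.05, 0.00166) and Ywhae (1.16, 0.0307) with Sik1 (1.12, 0.0182) and Camk2b (0.73, 0.0326). Camk2b was no longer called without that mouse (0.52, 0.0881), and Mef2c was then called lower (-1.27, 0.0137). In that setting 2 were called in WT polysomes, 1 in common, 2 in Het polysomes in place of 0, and 7 against monosomes in place of 5, with 4 in common. With all mice in, the median of the list in polysomes against monosomes was 0.64, against 0.20 for all probes.

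Of 20 tested muscle genes known to lie under class IIa and MEF2 control, Slc2a4, the insulin-sensitive glucose transporter, was higher in polysomes than in whole muscle in both WT (0.81, adjusted p = 0.0336) and Het mice (0.91, 0.0439). Fst was higher in WT polysomes (1.73, 0.0147), Myog, a myogenic factor induced by denervation, in Het polysomes (1.67, 0.0437), and Mef2c was lower in WT (-1.65, 0.0378). In WT mice 2 of 20 were called higher and 1 lower, where 10% and 10.3% of all probes were. In Het mice 2 of 20 were called higher, where 3.34% of all probes were, and none lower, where 4% were. With array brightness as a term no tested probe was called in Het mice. The number of calls without WT mouse 2 was 7 in Het and 5 in WT mice, and 11 against monosomes. Against monosomes 6 of 20 were higher, where 16.9% of all probes were, among them the orphan nuclear receptor Nr4a1 (1.46, 0.00274) and the ubiquitin ligase Trim63 (0.86, 0.0184), and none was lower.

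Partners and substrates of Hdac6 were mostly higher in polysomes than in monosomes: 13 of 22 tested were called higher and none lower, with a median of 1.05 against 0.20 for all probes, where 16.9% of all were called higher. They included Ubb (1.42, adjusted p = 0.000903), Vcp, a segregase that acts with Hdac6 on ubiquitin chains (1.75, 0.00197), the tubulins Tuba1a (1.05, 0.00395) and Tuba4a (0.82, 0.00737), the peroxiredoxin Prdx2 (1.09, 0.000935) and Sqstm1 (1.59, 0.0185). With array brightness as a term the median over all probes was 0.02, and this list was not counted under that term. When WT mouse 2 was left out 14 were called, 12 of them in common with the 13. Tuba4a, the 1 of 22 called in WT polysomes against whole muscle, was lower there (-0.89, 0.0325), and it was no longer called without that mouse (-0.85, 0.0657), when Vcp was the 1 called (0.90, 0.0414). Of 18 lysine acetyltransferases, the enzymes that add the groups that deacetylases remove, Kat2b was lower in WT polysomes than in whole muscle (-2.74, 0.0151), Kat2a was higher (0.82, 0.0377) and Gtf3c4 was higher in Het polysomes (1.39, 0.0383). These were all the calls among the 18 against whole muscle, where 10% of all probes were higher and 10.3% lower in WT and 3.34% higher in Het. Against monosomes 4 of 18 were higher, where 16.9% of all probes were, and none was lower, with Elp3 at 1.24 (0.00298). Without that mouse 3 were called in WT and 2 in Het polysomes, Taf1 added in both (0.83, 0.0495 and 0.86, 0.0316), and 6 against monosomes.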

How the data were processed

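RNA of mouse gastrocnemius was hybridised in 1 colour to Agilent arrays. The authors' scanner files, made with Agilent Feature Extraction 11.0.1.1, hold deposited spot intensity values, of which the background-subtracted processed signal was used. The authors' deposited table holds log2 values that ranked as the raw median signal and served as an alternative. Genes are named as the array design names them, and accessions were matched to the RefSeq table of assembly GRCm38.p6.

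Outlier spots were left out, spots of one probe were averaged on the log2 scale, and the 16 arrays were quantile-normalized together. A probe was tested if in some group all arrays showed it well above background and if it had a value on all 16, which 20251 probes with 15903 gene names met. Differences were fitted with limma 3.58.1 (lmFit, eBayes; R 4.3.3): whole muscle and polysome from 12 arrays by group, monosome comparisons from 16 arrays, and polysome against whole muscle from the 6 ratios per mouse, paired by replicate number since per the design text all RNA kinds came from each animal. Deviations from the group means of arrays of one mouse correlated at 0.0464 to 0.481 between whole muscle and polysomes and at 0.355 to 0.664 between polysomes and monosomes. Arrays of different mice and genotypes reached 0.378 (Het whole muscle 3 with WT polysome 2) and 0.491 (Het polysome 3 with WT monosome 2). The correlations therefore do not show that replicate numbers match mice. Benjamini-Hochberg adjustment ran over all tested probes. The number of arrays limits the precision. Single comparisons were checked by exact 2-sided permutation tests over samples (scipy 1.17.1). The fits were tested on simulated data.

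One probe, that with the highest mean signal among the tested, stood for a gene in lists. Named list members were those called, or up to 3 with the largest difference among those whose groups did not overlap, and only part of them is printed. The Hdac genes, the lists and the tests were chosen with earlier results of these data known. Slides were taken from the scanner files. Alternatives covered normalization, background correction, filter, slide, brightness, pairing, test and single replicates.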

Additional observations from a re-analysis of the deposited data

How the results depend on the processing

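Counts here are over all 12 tested probes, Hdac9 included. No Hdac probe was called between genotypes in whole muscle, polysomes or loading under any alternative run. In monosomes 3 of 12 were called on slide 2 alone, where 8231 of 20251 probes were, and leaving out single mice gave 0 to 6, the 6 without WT mouse 1, where 10836 of 20251 were. In both settings WT monosome 2 is the lone WT array. For WT polysomes against whole muscle the count of 2 became 4 with normexp background correction and 0 with no filter, with slide as a term, on slide 1 or slide 2 alone, with array brightness as a term and with the methods' t-test, and leaving out single mice gave 0 to 1. With an unpaired fit (no replicate block) both calls stood (Hdac7 1.01, adjusted p = 0.0302; Hdac10 at base 2172 0.85, 0.0323). For Het polysomes against whole muscle the count of 0 became 1 among probes above background on every array, and leaving out single mice gave 0 to 1 (1 without WT mouse 2). For polysomes against monosomes the count of 2 became 1 with no filter or the methods' t-test and 0 on slide 1 alone or with array brightness as a term. Leaving out single mice gave 0 to 4, Hdac9 included. With a replicate block a further probe was called, Hdac10 at base 2249 (0.69, adjusted p = 0.0354). At the study's threshold 1 probe was reached in polysomes without WT mouse 1 (Hdac9, left out of the report's counts because Het polysomes alone brought it into the test) and 1 in loading without WT mouse 3 (Hdac7, -1.01), and the range was 0 to 1 in both. In monosomes 1 of 12 reached it with slide as a term, where 5784 of 20251 probes did. Settings that leave 1 monosome array in a genotype are not counted for this threshold. The causes were not tested. Among the 32 genotype differences of the 8 genes, 510 of 558 values under alternatives lay within 1 SD of the reported one, 7 passed the adjusted threshold, all in monosomes, and 42 changed sign without a call on either side. Of the 32 differences, 23 changed sign under some alternative. The 32 include those of Hdac9, for which the value of the main fit, not printed above, stands as the reported one. Alternatives that change only the filter or the test leave a difference as it was. The count of 510 is therefore no measure of stability. With 3 or 2 arrays per group, differences near the standard errors given cannot be told from spread, and Hdac2, Hdac8 and the variant 1 probe of Hdac9 are limited by signal near background.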
